A study of Homo sapiens with 30 samples.

Results

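The genes described here are 9 interferon response genes, ISG15, IFI6, IFIT1, IFIT2, IFIT3, MX1, OAS1, IRF1 and IRF9, chosen by name out of 20367 gene symbols in a table of nascent transcription. The cells were G401, an established line from a malignant rhabdoid tumor that lacks SNF5, the protein encoded by SMARCB1 and a subunit of the SWI/SNF chromatin remodeler. Every group carried a lentiviral pInducer20 construct under a doxycycline-inducible promoter, with HA-tagged EGFP as the control, HA-tagged OmoMYC (a dominant-negative form of MYC) or HA-tagged SNF5 as the treatments. All 3 groups had been selected with G418 and had received doxycycline at 1 μg/ml for 24 h, so no untransduced or uninduced culture enters the comparisons. Nascent transcription was measured by PRO-Seq, which maps engaged RNA polymerase, in isolated nuclei, with 3 samples per construct, and open chromatin was measured by ATAC-Seq in 3 further samples per construct. Binding of MYC was measured by ChIP-Seq with 2 peak lists per construct. These are bulk measurements, in which fewer transcribing cells and less transcription per cell cannot be told apart.

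Interferons are secreted antiviral proteins that act through cell surface receptors, Janus kinases and STAT proteins. STAT proteins join with IRF9 in a complex that binds the interferon-stimulated response element (ISRE), while dimers of STAT proteins bind the gamma-activated site (GAS), and both elements drive a large set of antiviral genes. IFIT1, IFIT2 and IFIT3 encode related proteins that bind foreign RNA and block its translation, and they lie with IFIT5 in a cluster on chromosome 10. ISG15 encodes a ubiquitin-like modifier, IFI6 a membrane protein with antiviral and anti-apoptotic activity, MX1 a GTPase that traps viral particles, and OAS1 an enzyme that makes the activator of RNase L. IRF1 encodes a transcription factor induced by interferon gamma.

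The counted transcripts (hg19) were ISG15 at chr1:948847-949919 and IFI6 at chr1:27992572-27998724, and IFIT2 at chr10:91061706-91069033, IFIT3 at chr10:91087602-91100725 and IFIT1 at chr10:91152322-91163744. MX1 lay at chr21:42792520-42831141, OAS1 at chr12:113344739-113357712, IRF1 at chr5:131817301-131826465 and IRF9 at chr14:24630422-24635774. IFI6 and IRF1 are on the minus strand and the others on the plus strand.

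Depth and the targeted gene were checked over the whole table. Gene body reads, counted from 1 kb downstream of the start site to the gene end, totalled 28444943 to 46957634 per sample, whereas promoter-proximal reads, counted in the densest 50 bp window within 500 bp of the start, totalled 518900 to 672874 in the replicate 1 samples and 2027512 to 3386528 in the others. SMARCB1 had 11 gene body reads over the EGFP samples, 11 over the OmoMYC samples and 10777 over the SNF5 samples. The replicate 3 samples of all constructs stood apart from replicates 1 and 2, and values without them are given for the results that rest on them. Of 8 leukocyte markers, PTPRC had at most 1 read per sample and 5 were under a mean of 10 reads, while ITGAM had 71 to 315 and SPI1 18 to 141 gene body reads per sample. In the promoter-proximal window ITGAM had 0 reads in every sample, SPI1 0 to 2 and CD14 1 to 10. No ATAC-Seq peak lay within 1 kb of the start of any of the 8 markers. In scaled gene body reads the summed level of the 8 markers was 148, 397 and 108 with EGFP in replicates 1, 2 and 3, 240, 502 and 134 with OmoMYC, and 259, 528 and 269 with SNF5, so it was higher with SNF5 in each replicate number. Its part in the results was not tested.

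The DNA upstream of 1 start per gene was searched for fixed motif sequences, so sites of other spacing or position were not sought. Of the 9 genes, 8 were found in RefSeq promoters (GRCh38.p14), and the 250 bases before the start nearest to the counted gene were searched on both strands for the ISRE core GAAANNGAAA or TTTCNNTTTC, the GAS TTCNNNGAA and the E-box CACGTG, the MYC binding sequence. An ISRE core was found in 4 genes, a GAS in 3 (OAS1, IRF1 and IRF9) and an E-box in 1 (IRF9), where the GAS and the E-box lie 2 bases apart without overlap. Starts farther from the counted one were not part of these counts. Such a start of MX1, 11457 bp away, had an ISRE core and a GAS, and one of IFIT3, 4684 bp away, had 2 ISRE cores. Among 35116 RefSeq promoters, 3.021% hold the ISRE core, 6.567% the GAS and 6.345% the E-box in the same length. The upstream DNA of the genes on which the results turn is printed 5′ to 3′ on the strand of the gene, with motif letters in capitals. IFIT1 (chr10:89392373-89392622, plus strand) and IFIT3 (chr10:89327747-89327996, plus strand) have 2 ISRE cores each, in the orientation TTTCNNTTTC. IFI6 (chr1:27672193-27672442, minus strand) has 3, and ISG15 (chr1:1013247-1013496, plus strand) has 2 that overlap. IRF1 (chr5:132490774-132491023, minus strand) has a GAS, and IRF9 (chr14:24161015-24161264, plus strand) a GAS and the E-box.
IFIT1: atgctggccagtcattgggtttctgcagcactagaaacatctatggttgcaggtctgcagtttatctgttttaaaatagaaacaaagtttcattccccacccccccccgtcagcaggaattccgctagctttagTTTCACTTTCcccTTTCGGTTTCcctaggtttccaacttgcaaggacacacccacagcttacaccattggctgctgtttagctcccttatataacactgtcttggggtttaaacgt
IFIT3: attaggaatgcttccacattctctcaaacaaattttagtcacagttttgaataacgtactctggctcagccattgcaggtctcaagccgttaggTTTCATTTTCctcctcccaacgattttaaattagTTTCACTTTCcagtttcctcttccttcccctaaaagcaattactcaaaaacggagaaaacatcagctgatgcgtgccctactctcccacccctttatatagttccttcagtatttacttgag
IFI6: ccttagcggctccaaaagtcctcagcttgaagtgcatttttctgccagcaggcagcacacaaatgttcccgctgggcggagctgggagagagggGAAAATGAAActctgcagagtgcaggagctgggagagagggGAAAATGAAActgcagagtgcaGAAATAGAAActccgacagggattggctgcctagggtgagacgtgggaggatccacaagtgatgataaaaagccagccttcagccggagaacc
ISG15: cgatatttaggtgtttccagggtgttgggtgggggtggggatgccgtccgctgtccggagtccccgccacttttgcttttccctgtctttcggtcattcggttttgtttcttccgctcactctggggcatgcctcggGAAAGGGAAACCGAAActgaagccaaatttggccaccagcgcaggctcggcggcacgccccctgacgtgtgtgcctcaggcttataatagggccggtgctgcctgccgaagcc
IRF1: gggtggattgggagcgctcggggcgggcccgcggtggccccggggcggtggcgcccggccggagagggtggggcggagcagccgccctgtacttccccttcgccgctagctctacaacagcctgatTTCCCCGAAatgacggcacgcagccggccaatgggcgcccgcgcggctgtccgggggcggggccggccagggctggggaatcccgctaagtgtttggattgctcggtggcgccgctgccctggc
IRF9: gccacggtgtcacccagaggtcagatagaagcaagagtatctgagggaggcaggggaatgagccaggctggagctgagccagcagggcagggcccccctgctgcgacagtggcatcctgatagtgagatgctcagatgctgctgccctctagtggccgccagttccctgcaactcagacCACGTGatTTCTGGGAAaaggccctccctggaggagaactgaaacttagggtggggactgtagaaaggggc

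The levels of the 9 genes in the EGFP samples spanned a wide range. Scaled reads are reads divided by the size of the library relative to the others, and per kb of counted gene body IRF9 had the highest level, at 142.8 ± 24.2 (mean ± SD, n = 3). IRF1 followed at 47.8 ± 5.04 and IFI6 at 31.8 ± 6.35 scaled reads per kb, and the ranges of these 3 genes did not overlap. IFIT3 at 16.6 ± 28.4, IFIT2 at 13.9 ± 23.7 and IFIT1 at 10.6 ± 17.0 could not be ordered, since the SD exceeded the mean for each of them. Their replicate 3 samples carried these means, and in EGFP replicates 1 and 2 the levels were 0.182 and 0.211 for IFIT3, 0.174 and 0.202 for IFIT2 and 0.317 and 1.22 for IFIT1. MX1 at 0.04 ± 0.05 and OAS1 at 0.03 ± 0.05 were near 0. For ISG15 the counted gene body was 73 bp long, so its gene body level is not placed in this order. On gene bodies 6 of the 9 genes passed the minimum mean of 10 reads, and ISG15, MX1 and OAS1 did not. Across constructs, the samples of replicate 3 differed most for the IFIT genes (plot of scaled gene body reads).

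**Figure D1:**
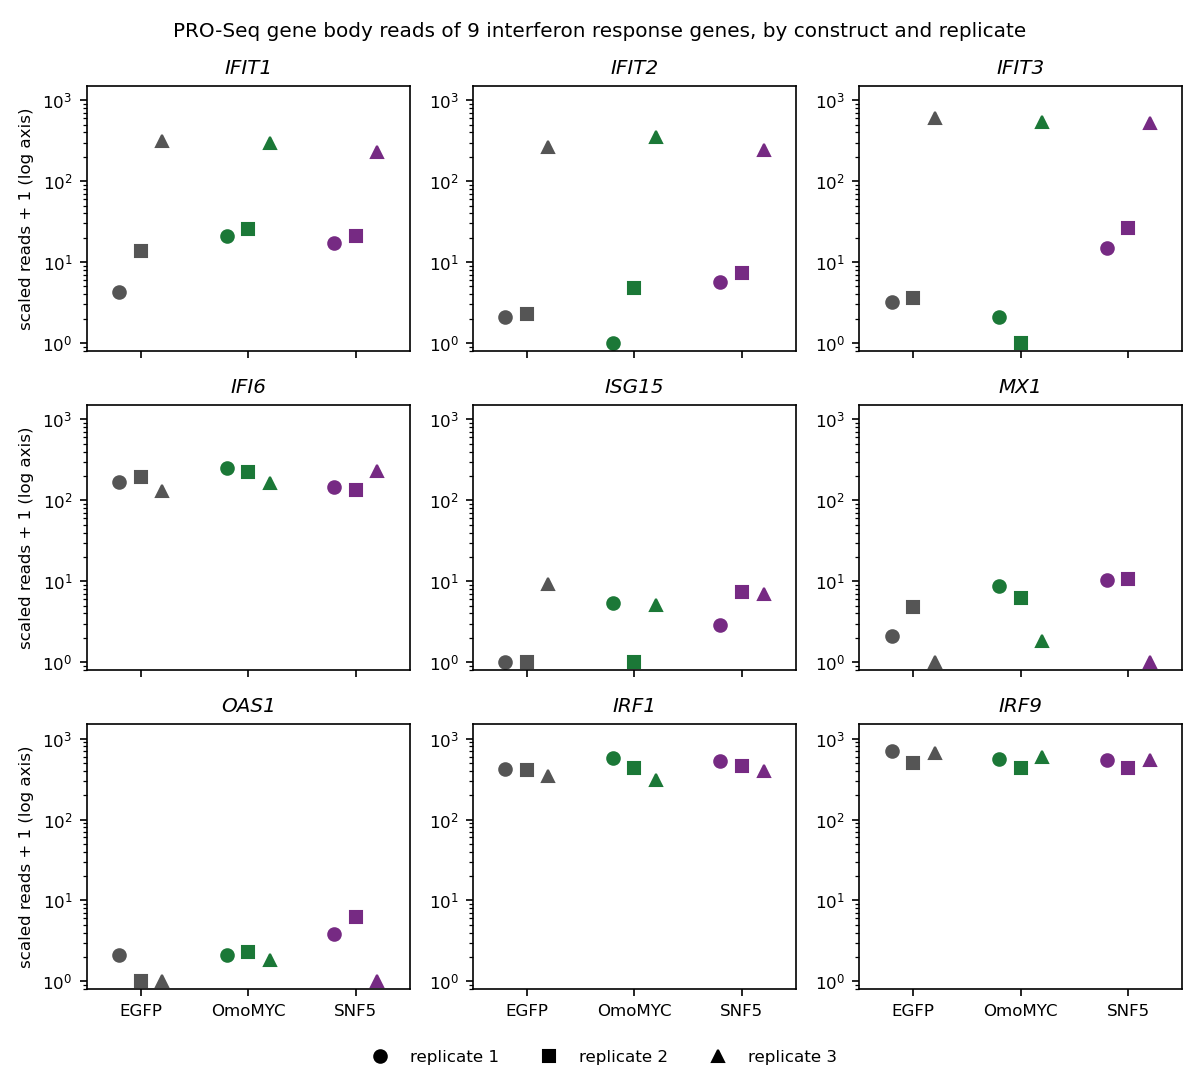
Scaled gene body reads plus 1 (log axis) of each of the 9 genes in every PRO-Seq sample, by construct (colour and position) and replicate number (circle, square and triangle for replicates 1, 2 and 3). The replicate 3 triangles of IFIT1, IFIT2 and IFIT3 lie between 230 and 599 scaled reads in all constructs, while replicates 1 and 2 of these genes stay at 25.4 or below.

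The IFIT genes differed far more between replicate numbers than between constructs. IFIT3 had 2.20, 2.55 and 599 scaled gene body reads in EGFP replicates 1, 2 and 3, 1.10, 0 and 538 in OmoMYC, and 14.1, 25.4 and 529 in SNF5. Within replicates 1 and 2 the SNF5 samples were above all EGFP and OmoMYC samples, and within replicate 3 the SNF5 sample was the lowest. Over all samples, with replicate number as a block, the log2 fold change of IFIT3 was 0.70 (SE 0.63) with SNF5, with an adjusted p of 0.42, and -0.20 (SE 0.60, adjusted p = 0.85) with OmoMYC. Neither difference passed the test. With DESeq2 the value with SNF5 was 2.34 (adjusted p = 0.11) on the gene body, and at the promoter it was 3.91 (adjusted p = 0.32) where edgeR gave 1.18 (adjusted p = 0.19).

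IFIT1 had 3.30, 12.8 and 315 scaled gene body reads with EGFP, 19.8, 24.4 and 297 with OmoMYC, and 16.0, 20.1 and 230 with SNF5. Both constructs were above EGFP in replicates 1 and 2 and below it in replicate 3. The log2 fold change was 0.14 (SE 0.39, adjusted p = 0.80) with SNF5 and 0.47 (SE 0.38, adjusted p = 0.45) with OmoMYC. IFIT2 had 1.10, 1.28 and 261 scaled reads with EGFP, 0, 3.85 and 349 with OmoMYC, and 4.71, 6.35 and 240 with SNF5. Its SNF5 samples were the highest of replicates 1 and 2 and the lowest of replicate 3. The log2 fold change of IFIT2 was 0.27 (SE 0.47, adjusted p = 0.69) with SNF5 and 0.40 (SE 0.45, adjusted p = 0.59) with OmoMYC.

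The difference between replicate 3 and the mean of replicates 1 and 2 was computed in the same fit after the values were seen. It is given as a description, and its adjusted p-values are not used as a test. Over all constructs IFIT2 had 16 gene body reads in the 6 samples of replicates 1 and 2 and 1025 in the 3 samples of replicate 3, IFIT3 had 44 and 2007, and IFIT1 had 86 and 1016. The fitted log2 differences were 6.57 (SE 0.37, 94.7-fold) for IFIT2, 6.29 (SE 0.48, 78.2-fold) for IFIT3 and 4.17 (SE 0.30, 18.0-fold) for IFIT1. IFIT2 and IFIT3 passed the minimum mean of 10 reads through replicate 3 alone. The opposite order was seen in MX1, with 34 reads in replicates 1 and 2 and 1 in replicate 3, and in OAS1, with 11 and 1, neither of which passed the minimum. IRF1 was lower in replicate 3, at -0.41 (SE 0.11), with means of 507, 429 and 349 scaled reads in replicates 1, 2 and 3. On gene bodies IFI6 (-0.06) and IRF9 (0.20) differed less, and ISG15 had 12 and 22 reads. What distinguishes the replicate numbers is not given in the sources used here, so nothing can be attributed to a date, a passage or a preparation.

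On gene bodies the remainder of the pathway was not uniformly higher in replicate 3. Of 64 genes that passed the minimum from a list of other interferon pathway genes, 20 were higher and 12 lower at an adjusted p under 0.05. Over all genes 26.4% were higher and 24.1% lower at that mark, and the median log2 difference of the 64 was 0.04. In the promoter-proximal window the median of 50 tested genes of the list was 0.44. No value over all genes was computed for that window, where the replicate 1 samples held far fewer reads. These counts describe a contrast chosen after the values were seen. IFIT5, the neighbour of IFIT1 and a binder of RNA, had 5.50, 5.11 and 94.6 scaled reads with EGFP and was higher in replicate 3 by 3.09 (8.51-fold). HERC5, a ligase that attaches ISG15 to proteins, had 207, 195 and 1105 with EGFP, 196, 212 and 1024 with OmoMYC, and 186, 190 and 1066 with SNF5, a log2 difference of 2.43 (5.38-fold) with no overlap between replicate 3 and the others. IFI16, a DNA sensor, was higher by 2.70, whereas IRF5, a factor of innate signalling, was lower at -4.36 and NMI, a partner of STAT proteins, was lower at -4.02. Among the 3 tested leukocyte markers, CD4 was higher by 1.09, and ITGAM (-1.18) and SPI1 (-1.42) were lower. The other 5 markers were not tested, and the part of the marker genes in the pattern was not tested.

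**Figure D2:**
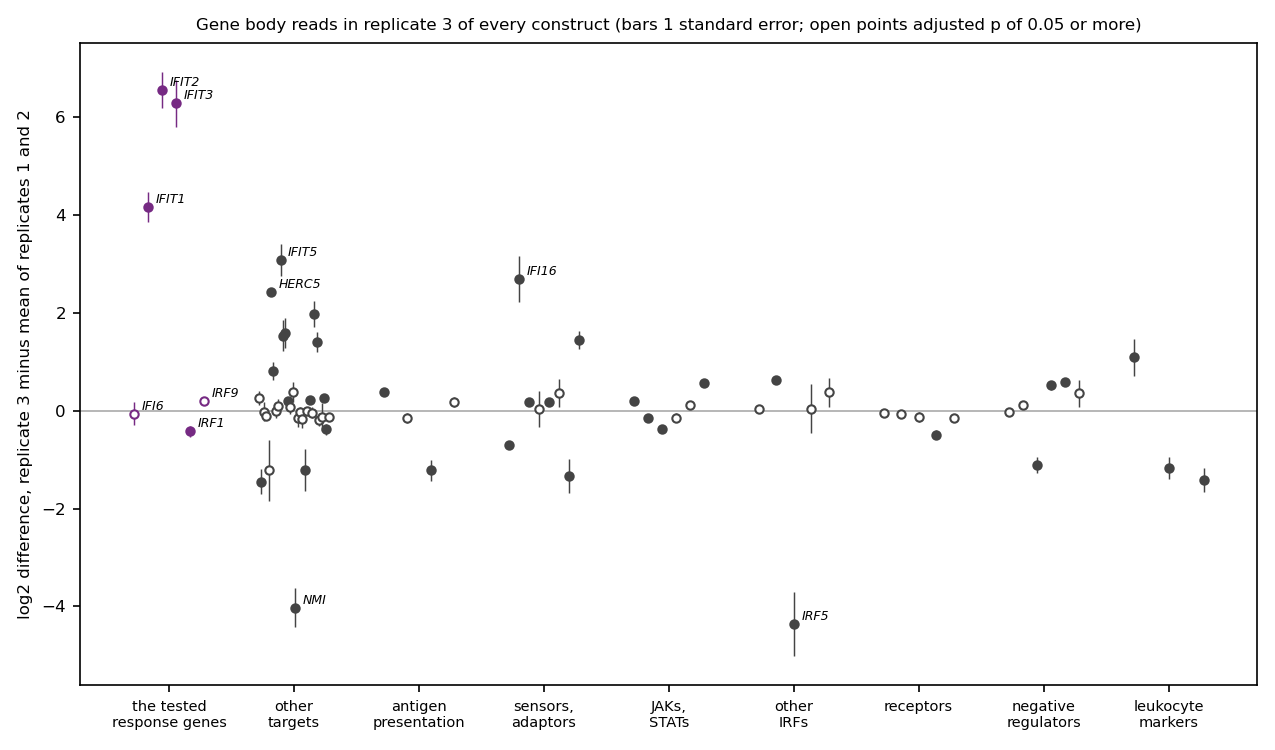
Log2 difference in gene body reads between replicate 3 and the mean of replicates 1 and 2 (vertical axis, bars 1 standard error) for the 6 tested interferon response genes, 64 other pathway genes grouped by role and 3 leukocyte markers, with open points for an adjusted p of 0.05 or more, in a contrast chosen after the values were seen. IFIT2 (6.57), IFIT3 (6.29) and IFIT1 (4.17) lie above all other points, while IRF5 (-4.36) and NMI (-4.02) lie lowest. Open and filled marks are a description, not a test.

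Without replicate 3, and with the minimum lowered to a mean of 1 read so that all 9 genes were tested, IFIT3 was higher with SNF5. This alternative was also added after the values were seen. Over replicates 1 and 2 together IFIT3 had 39 gene body reads with SNF5 and 4 with EGFP, a ratio of 8.22 after scaling (exact 95% interval 2.96 to 31.7, counting error only), whereas in replicate 3 the ratio was 0.883 (0.792 to 0.984). The edgeR estimate for IFIT3 was 2.95 (SE 0.84, adjusted p = 0.0042). OmoMYC had 1 read of IFIT3 over replicates 1 and 2, and SNF5 exceeded OmoMYC with an adjusted p of 0.00078. The promoter-proximal window showed the same order, with 0 and 0 reads in EGFP, 0 and 0 in OmoMYC, and 3 and 15 in SNF5 (adjusted p = 0.00065 against EGFP).

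The other low genes were higher with SNF5 in replicates 1 and 2 without passing the test. IFIT1 had 36 reads with SNF5 and 13 with EGFP (ratio 2.33, interval 1.21 to 4.80, adjusted p = 0.087), IFIT2 had 11 and 2 (ratio 4.63, interval 1.01 to 43.0, adjusted p = 0.19), and with OmoMYC IFIT1 had 37 (ratio 2.85, interval 1.48 to 5.85), which passed with an adjusted p of 0.040. In this setting 2 of 9 genes were called with SNF5 (IFIT3 and IRF9) beside 50.2% of all genes, 3 with OmoMYC (IFIT1, IRF1 and IRF9) beside 39.3%, and 2 in SNF5 against OmoMYC (IFIT3, higher, and IFI6, lower) beside 37.0%. These shares of the 9 genes lie below those of all genes. The call for IFIT3 rests on 2 samples per construct and on few reads in the control.

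MX1 and OAS1, the antiviral effectors with the fewest reads, were nearly silent. MX1 had 1, 3 and 0 gene body reads with EGFP, 7, 4 and 1 with OmoMYC, and 10, 9 and 0 with SNF5, so replicate 3, where the IFIT genes were high, held at most 1 read. In scaled reads an exact permutation test (two-sided) that ignored the replicate number gave p = 0.4 for SNF5 and p = 0.3 for OmoMYC, where 0.1 is the smallest p that 3 against 3 samples allow, so no result could have passed 0.05. Within replicate numbers 1, 2 and 3 the log2 ratio of MX1 gene body reads against the EGFP sample, with 1 scaled read added, was 2.05, 0.34 and 0.86 with OmoMYC and 2.31, 1.12 and 0 with SNF5. In the promoter-proximal window of its counted start MX1 had 0 reads in all EGFP samples, 1, 4 and 2 with OmoMYC, and 3, 1 and 0 with SNF5. In that window the OmoMYC samples lay above all EGFP samples (exact permutation p = 0.1, the smallest possible). The MX1 start 11457 bp away, which had the ISRE core and the GAS, was outside that window. OAS1 had 1, 0 and 0 reads with EGFP, 1, 1 and 1 with OmoMYC, and 3, 5 and 0 with SNF5 (exact permutation p = 0.4 and p = 0.3). Over the 10 exact permutation tests made of the low genes the Benjamini-Hochberg adjusted p-values were 0.667 to 1.00. Over all samples the SNF5 to EGFP ratio was 4.34 (exact 95% interval 1.44 to 17.6) for MX1 and 7.31 (0.981 to 325) for OAS1, and these intervals cover counting error only.

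IFI6 showed more promoter-proximal reads with both constructs and no detectable change in the gene body. Its gene body held 166, 195 and 130 scaled reads with EGFP, 248, 223 and 163 with OmoMYC, and 147, 133 and 233 with SNF5, and the groups overlapped. The gene body log2 fold change was 0.08 (SE 0.28, adjusted p = 0.84) with SNF5 and 0.37 (SE 0.27, adjusted p = 0.41) with OmoMYC.

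In the promoter-proximal window IFI6 had 7.71, 176 and 87.2 scaled reads with EGFP, 15.4, 439 and 162 with OmoMYC, and 4.71, 517 and 153 with SNF5. Replicate 2 was highest in every construct, replicate 1 was lowest, and within replicate 1 SNF5 was below EGFP. The blocked fit gave a log2 fold change of 1.04 (SE 0.26, adjusted p = 0.019) with SNF5 and 1.11 (SE 0.27, adjusted p = 0.026) with OmoMYC, and IFI6 was the 1 gene called of 7 tested in each comparison, beside 4.30% of all genes with SNF5 and 1.75% with OmoMYC. Both calls ended without replicate 2, where the values were 0.53 (adjusted p = 0.77) and 0.95 (adjusted p = 1.00), and both ended without the block. With DESeq2 the SNF5 call ended (adjusted p = 0.058).

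ISG15 was read mainly at its promoter. It had 14.3, 34.5 and 26.3 scaled promoter-proximal reads with EGFP, 17.6, 43.6 and 36.0 with OmoMYC, and 15.1, 34.9 and 32.4 with SNF5. The groups overlapped, and the log2 fold changes of 0.14 with SNF5 and 0.37 with OmoMYC did not pass the test. In its 73 bp gene body window there were 0 to 10 reads per sample.

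The transcription factor genes were read in every sample, with 310 to 577 scaled gene body reads for IRF1 and 431 to 700 for IRF9. IRF9, the DNA-binding partner of STAT proteins, had 700, 502 and 663 scaled gene body reads with EGFP, 555, 431 and 598 with OmoMYC, and 546, 436 and 544 with SNF5. The SNF5 value was below the EGFP value in each of the 3 replicate numbers, although the groups overlapped when numbers were ignored. The log2 fold change was -0.28 (SE 0.092, adjusted p = 0.040) with SNF5 and -0.23 (SE 0.092, adjusted p = 0.13) with OmoMYC. IRF9 was the 1 gene called of 6 tested with SNF5 on gene bodies, beside 34.4% of all genes, and none of the 6 was called with OmoMYC, beside 8.49%, or in SNF5 against OmoMYC, beside 19.0%.

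RNF31, a subunit of a ubiquitin ligase complex, ends 552 bp upstream of IRF9 on the same strand, and no other of the 9 genes has such a neighbour within 5 kb. RNF31 had 1604, 1278 and 1729 scaled reads with EGFP and 1287, 1147 and 1191 with SNF5, a log2 fold change of -0.34 (adjusted p = 0.013). With OmoMYC it was also lower, at -0.34 (adjusted p = 0.040). Its part in the IRF9 result was not tested. The IRF9 call ended without the block (-0.29, adjusted p = 0.57), without replicate 1 (-0.24, adjusted p = 0.32), without replicate 2 (-0.32, adjusted p = 0.18) and with only the EGFP and SNF5 samples in the fit (adjusted p = 0.093).

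IRF1 had 423, 403 and 344 scaled gene body reads with EGFP, 577, 431 and 310 with OmoMYC, and 520, 452 and 394 with SNF5. Each SNF5 value exceeded the EGFP value of its number, while OmoMYC was above EGFP in replicates 1 and 2 and below it in replicate 3. The log2 fold change was 0.22 (SE 0.13, adjusted p = 0.22) with SNF5 and 0.14 (SE 0.13, adjusted p = 0.52) with OmoMYC, both within the spread.

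**Figure D3:**
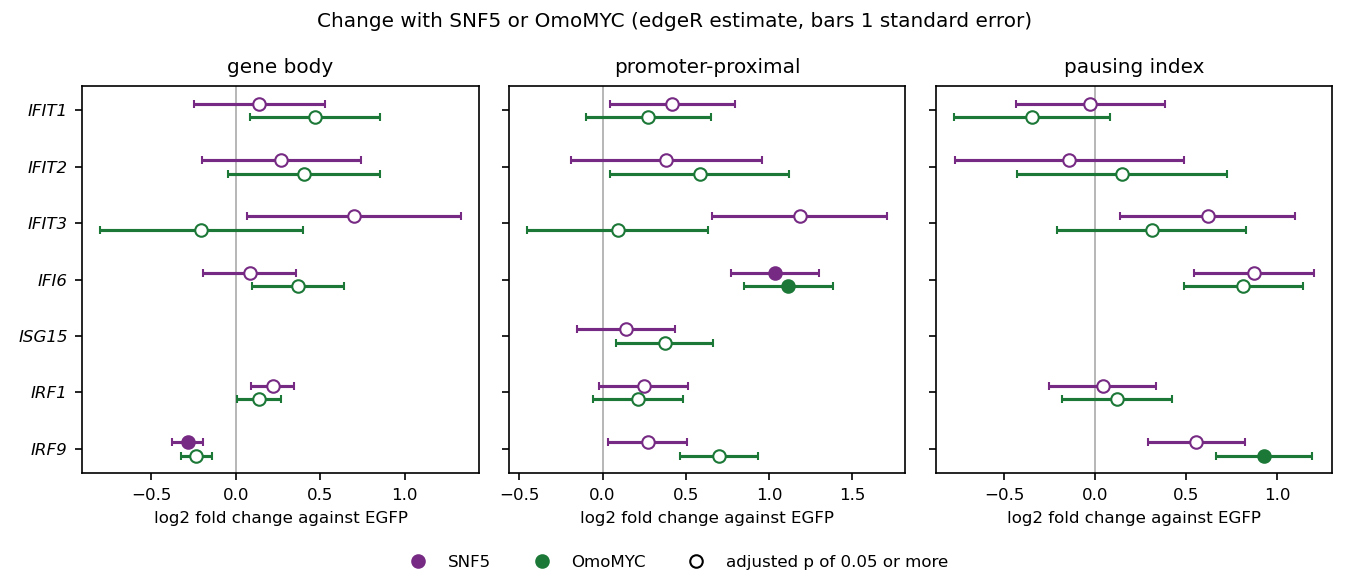
Log2 fold change with SNF5 (purple) and OmoMYC (green) against EGFP, from the fit across all genes, for gene body reads, promoter-proximal reads and the pausing index, with bars of 1 standard error and filled points for an adjusted p under 0.05. The 4 filled points are IRF9 on the gene body with SNF5, IFI6 at the promoter with each construct, and the IRF9 pausing index with OmoMYC.

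The pausing index compares read density in the promoter-proximal window with that in the gene body, and a rise means relatively more polymerase near the start. For IRF9 it was 6.71, 8.64 and 9.07 with EGFP, 11.9, 22.5 and 13.9 with OmoMYC, and 12.2, 11.8 and 11.7 with SNF5. All samples of both constructs were above all EGFP samples. The log2 change was 0.92 (SE 0.26, adjusted p = 0.045) with OmoMYC, the 1 call among 6 tested genes beside 2.26% of all genes, and the all-gene median was 0.14. No gene of the 6 was called with SNF5, beside 3.66%, or in SNF5 against OmoMYC, beside 1.23%, and on the promoter-proximal window none of 7 was called in SNF5 against OmoMYC, beside 0.836%. The IRF9 call ended with DESeq2, without the block, without replicate 1, without replicate 2 and with only the compared samples in the fit. For IFI6 the change was 0.87 (adjusted p = 0.12) with SNF5 and 0.81 (adjusted p = 0.19) with OmoMYC.

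Beyond these 9 genes, the list of other interferon pathway genes held 108 names, of which 102 were in the table and 64 passed the minimum on gene bodies. IFNA1, IFNB1, IFNL1, IFNL2, IFNL3 and IFNLR1 were not found in the table used here, and 16 of the 102 were listed at 0 gene body reads in all samples. Of 15 antigen presentation genes, 10 were listed at 0, among them TAP1, TAP2 and PSMB9, and 153 of 186 symbols between 29 and 34 Mb of chromosome 6 were at 0 as well. These zeros are therefore given as listed, not as measured absence of transcription. The gene bodies of the ligands IFNG, IFNE, IFNK and IFNW1 were also at 0. PSMB10, a proteasome subunit, at 464 ± 142, TRIM28, a transcriptional corepressor, at 420 ± 120, and SOCS3, an inhibitor of JAK signalling, at 402 ± 98.0 had the highest scaled reads per kb with EGFP, above IRF9.

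With SNF5, 25 of the 64 genes were higher and 4 lower, which is 45.3% called beside 34.4% of all genes, and the median log2 fold change was 0.16 beside -0.03 over all genes. With OmoMYC 13 were higher and none lower, 20.3% beside 8.49%, with a median of 0.20 beside -0.0033. Both comparisons share the EGFP samples. In SNF5 against OmoMYC 12 were higher and 2 lower, 21.9% beside 19.0% of all genes. Without replicate 3, 28 of 63 were higher and 11 lower with SNF5 (61.9% beside 56.7% of all genes) and 28 higher and 5 lower with OmoMYC (52.4% beside 45.6%), and with a mean of at least 1 read the shares were 50% beside 50.2% and 41.2% beside 39.3%, near those of all genes. With OmoMYC none was called without replicate 1, without replicate 2 or without the block, and with SNF5 15 and 14 were higher without replicates 1 and 2 and 7 without the block. Over all 15060 genes tested, 2609 were higher and 2572 lower with SNF5, and 599 higher and 680 lower with OmoMYC. By role, 15 of 30 other target genes, 3 of 4 antigen presentation genes, 2 of 8 sensors and adaptors, 2 of 5 other IRF genes, 2 of 6 kinases and STATs and 1 of 5 receptors were higher with SNF5. The smaller roles hold too few genes to set them apart from all genes. None of 6 negative regulators was higher with SNF5, and the 4 genes that fell were SOCS3 and TRIM28, both negative regulators, the receptor gene IFNGR2 (-0.49) and the kinase gene TYK2 (-0.29). With OmoMYC, 7 of 30 other targets, 2 of 4 antigen presentation genes, 3 of 6 kinases and STATs and 1 of 5 receptors were higher. None of 8 sensors and adaptors, 5 other IRF genes or 6 negative regulators was called, where 8.49% of all genes were called, so few or none would be looked for.

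The pathway genes with the smallest p-values were higher in all replicate numbers. Their choice by p-value in a blocked fit to these same samples favours such an order, so it is not separate support. PARP14, an ADP-ribosyltransferase, had 742, 776 and 781 scaled reads with EGFP and 1690, 1680 and 1984 with SNF5, and its log2 fold change was 1.22 (SE 0.12, adjusted p = 0.00021). DTX3L and PARP9, which form a ubiquitin ligase complex, rose with SNF5 by 2.11 and 1.85 on the log2 scale. SLFN5, a nuclear protein of the Schlafen family, had 166, 171 and 192 with EGFP, 394, 393 and 319 with OmoMYC, and 420, 449 and 438 with SNF5, and rose with SNF5 by 1.30 (adjusted p = 0.00026) and with OmoMYC by 1.05 (adjusted p = 0.012). For PARP14 and SLFN5 all SNF5 samples lay above all EGFP samples. NLRC5, an activator of MHC class I genes, rose by 2.12 with SNF5 and 1.09 with OmoMYC.

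SP100, a nuclear body protein, rose by 3.25 with SNF5 and TRIM22, an antiviral ubiquitin ligase, by 2.73. PLSCR1, a phospholipid scramblase induced by interferon, had 2.20, 2.55 and 0.822 scaled reads with EGFP and 40.5, 54.0 and 13.6 with SNF5, a log2 fold change of 4.14 (SE 0.53, adjusted p = 0.00074). With OmoMYC the genes with the smallest p-values also included OAS3 (1.16), which makes the activator of RNase L as OAS1 does, DDX60 (1.39), a helicase of antiviral sensing, TRIM21 (0.70), an antibody receptor, B2M (0.42), the light chain of MHC class I, and the kinase JAK1 (0.26). STAT2 rose by 0.39 with OmoMYC (adjusted p = 0.043) and had 0.04 with SNF5. Receptor genes IFNAR1 and IFNAR2 had -0.06 and -0.09 with SNF5 and did not pass. The receptor gene IFNGR1 had 457, 568 and 539 scaled gene body reads with EGFP. It had 672, 743 and 696 with OmoMYC and 914, 1031 and 709 with SNF5. SOCS3 fell by 0.58 with SNF5. The 8 genes named for SNF5 kept their calls without each replicate in turn, and SP100 (adjusted p = 0.18) and NLRC5 (adjusted p = 0.10) lost them without the block. These fits reuse the samples on which the genes were chosen, so they are not a separate check. On the promoter-proximal window 50 of the listed genes were tested, of which 5 were higher and 2 lower with SNF5 (14.0% beside 4.30% of all genes) and 2 were higher with OmoMYC (4% beside 1.75%), where B2M rose with both constructs (1.46 and 1.05). None was called there without replicate 2 or without the block. Of the 3 tested leukocyte markers, ITGAM was higher with SNF5, at 1.01 (adjusted p = 0.0145), and its part in these results was not tested.

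Open chromatin at the start of IFIT1 was found only in the SNF5 samples. Peaks within 1 kb of its start had fold enrichments of 5.68, 6.84 and 7.96 over background in the 3 SNF5 samples, and no EGFP or OmoMYC sample had a peak there. The SNF5 peaks spanned chr10:89392365-89392667, chr10:89392464-89392668 and chr10:89392426-89392676 (hg38), and each covered both ISRE cores of the IFIT1 sequence printed above. IFIT1 was the 1 gene of the 9 gained in all SNF5 samples and no EGFP sample, beside 1.82% of 19100 starts, and none was lost with SNF5 (0.00524%), gained with OmoMYC (0.0209%) or lost with OmoMYC (0.0209%). The SNF5 lists were longer, with 22722 to 33596 peaks against 9208 to 17817 with EGFP and 7260 to 23684 with OmoMYC, and when each list was cut to its 7260 strongest peaks IFIT1 was no longer gained. No peak was found within 1 kb of the start used for IFIT2, IFIT3, MX1 or OAS1 in any sample. The MX1 start 11457 bp away was not searched for peaks.

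IRF1 had a peak over its GAS, within 1 kb of its start, in all 9 samples. Fold enrichments were 6.23 to 7.28 with EGFP, 4.45 to 8.68 with OmoMYC and 6.35 to 7.77 with SNF5, so the groups overlapped. IFI6 had peaks over its 3 ISRE cores in EGFP sample 1 (5.23) and SNF5 samples 1 (6.38) and 2 (7.37). ISG15 had a peak in OmoMYC sample 2 (4.66), and IRF9 in SNF5 sample 2 (6.03). Of the 9 genes, 3, 4 and 2 had a peak in the SNF5 samples, 2, 1 and 1 in the EGFP samples and 1, 2 and 1 in the OmoMYC samples. The mean was 3.00 ± 1.00 (SD, n = 3) with SNF5 and 1.33 ± 0.577 with EGFP, and the exact permutation test (two-sided) gave p = 0.2, in a design where no p under 0.1 is possible. Among 102 other pathway genes with a start, 2 were gained with SNF5, IFIH1, an RNA sensor, and PLSCR1. This is near the 1.82% of all starts gained with SNF5, from the longer SNF5 lists. IFIH1 also had a peak in OmoMYC sample 2. None of the 102 was lost with SNF5 (0.00524% of all starts) or gained or lost with OmoMYC (0.0209% each).

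**Figure D4:**
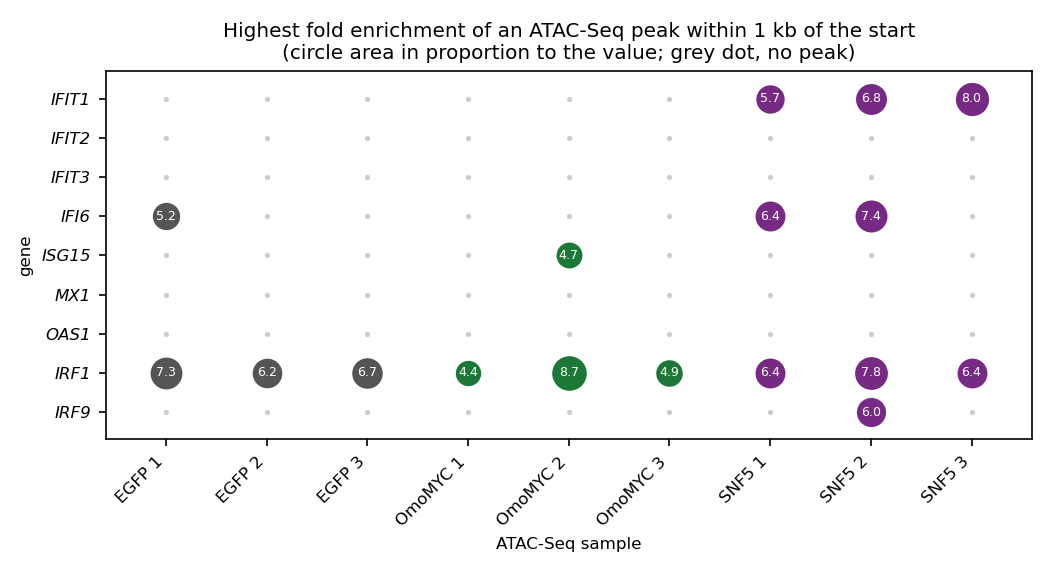
Highest fold enrichment of an ATAC-Seq peak within 1 kb of the start of each gene (rows) in each sample (columns), with circle area in proportion to the value and a grey dot where no peak was listed. IFIT1 has circles in the 3 SNF5 samples alone (5.68 to 7.96), and IRF1 in all 9.

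No MYC ChIP-Seq peak lay within 1 kb of the counted start of any of the 9 genes in any of the 6 lists. The EGFP lists held 940 and 5396 peaks, which reached 4.43% and 23.48% of all starts, and the SNF5 lists held 137 and 27, while each OmoMYC list held 1 peak. In the EGFP lists the nearest summit to any of the 9 starts was 12536 and 12635 bp away. IRF9, the gene with the E-box, likewise had no peak. A list holds only regions that passed the threshold of the peak caller, so absence from a list is not absence of binding.

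For the 6 genes that passed the minimum on gene bodies, the most similar gene was sought over the 9 samples after the mean of each replicate number was removed, among 15059 other genes. The highest Pearson correlation was 0.995 for IFIT3 with MDFIC, 0.990 for IRF9 with KIAA1274, 0.989 for IFI6 with SH3BP5L, 0.985 for IFIT2 with CPN1, 0.981 for IFIT1 with IFT80 and 0.968 for IRF1 with MATL2963. These are the largest of many values over 9 samples, and they are given as descriptions. Over the 6 samples without replicate 3 the same pairs had correlations of 0.957 to 0.998. The pairs had been chosen on samples that include these 6, so this is not a separate check.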

How the data were processed

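PRO-Seq reads had been trimmed with Cutadapt, and the authors kept reads longer than 15 bp, aligned them with Bowtie2 to hg19, removed ribosomal reads and those with a mapping quality below 10, and counted the rest with NRSA, as stated in the study's methods. The deposited counts are whole reads per transcript in a promoter-proximal window and a gene body, and 9 deposited density columns were not used. Deposited ATAC-Seq (hg38, MACS2, q 0.001) and MYC ChIP-Seq (hg19, MACS2, q 0.01) peak lists give a fold enrichment, which is a ratio to background, and a −log10 q-value for each peak, called per sample. The genes and lists were chosen with earlier results of these data known.

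Counts were fitted with edgeR 4.0.16 (R 4.3.3) by its quasi-likelihood test over all genes with a mean of at least 10 reads, with size factors from gene bodies, all 9 samples and replicate number as a block. Adjusted p-values follow Benjamini and Hochberg over all genes tested, with a threshold of 0.05. Each SE, also in the figures, is the absolute log2 fold change divided by the square root of its F statistic. It is therefore an approximation. The study's figure legends call the PRO-Seq samples of a group independent experiments. Its methods state that the tests of promoter-proximal and gene body counts took a batch effect into account. The replicate numbers in the labels were taken as pairing samples, because deviations from group means correlated at 0.767 to 0.889 within a number (9 pairs) and -0.675 to 0.128 between numbers (18 pairs). The pausing index was tested as the interaction of window and construct. Genes under the minimum were compared by exact permutation tests on scaled reads, with exact 95% intervals for read ratios. Peaks within 1 kb of a start were matched per sample, and a start was gained when all 3 samples of a construct and no EGFP sample had a peak.

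Named pathway genes were the 8 with the smallest p-values per comparison and the 3 of highest density with EGFP. Others named, among them those of the replicate 3 contrast, the receptors and STAT2, were chosen after their values were seen, as were that contrast, the setting without replicate 3 and with a mean of at least 1 read, and the counts of pathway genes under the alternatives. Alternatives were DESeq2 1.42.0, other size factors, other minimums, no block, only the compared samples and each replicate left out. Python 3.11.15 with pandas 2.3.3, SciPy 1.17.1 and matplotlib 3.10.9 handled peaks, sequences and figures.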

Additional observations from a re-analysis of the deposited data

How the results depend on the processing

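Counts of called genes among the 9 depended on the design. Without the replicate block, which was the paired term of the fit, the counts were 0 for gene bodies with SNF5 (1 with the block), 0 for the promoter-proximal window with SNF5 and with OmoMYC (1 each with the block) and 0 for the pausing index with OmoMYC (1 with the block). With only the 2 constructs compared in the fit they were 0 for gene bodies with SNF5 and 0 for the pausing index with OmoMYC, and with DESeq2 they were 0 for the promoter-proximal window with SNF5 and 0 for the pausing index with OmoMYC. Leaving out each replicate in turn gave 0 to 1 for gene bodies with SNF5, 0 to 3 with OmoMYC and 0 to 1 in SNF5 against OmoMYC. The highest of these counts came without replicate 3, where 56.7%, 45.6% and 42.0% of all genes were called. Leaving out replicates gave 0 to 2 for the promoter-proximal window with SNF5 and with OmoMYC, 0 to 1 for the pausing index with SNF5 and 0 to 2 with OmoMYC. The counts of 2 came without replicate 3. There 5.41% and 7.87% of all genes were called on the promoter-proximal window, and 954 of 11063 for the pausing index with OmoMYC. The pausing index count of 1 with SNF5 came beside 620 of 11386 genes without replicate 1 and 395 of 11063 without replicate 3. An alternative added after the data were seen left out replicate 3 and used a mean of at least 1 read. There the gene body counts were 2 with SNF5, 3 with OmoMYC and 2 in SNF5 against OmoMYC, beside 50.2%, 39.3% and 37.0% of all genes. The promoter-proximal counts were 3, 2 and 1, beside 5.49%, 6.48% and 3.96% of all genes. The gain of an ATAC-Seq peak went from 1 gene to 0 with the same number of top peaks, because the lists were then shortened. The remaining 81 recomputed counts stayed within 1.5 times of the reported one, among them the count of 0 genes with a MYC peak within 5 kb.

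The direction turned for 4 values that did not pass the test. IFIT3 on gene bodies with SNF5 was -0.091 without the block. Leaving out each replicate gave IRF1 on gene bodies with OmoMYC a range of -0.027 (without replicate 1) to 0.28 (without replicate 3), IFIT1 at the promoter with SNF5 one of -0.20 (without replicate 2) to 1.67 (without replicate 3), and the IFI6 pausing index with SNF5 one of -0.14 (without replicate 2) to 1.69 (without replicate 3). The cause was not tested. Of the other single-gene values, 135 kept their direction and their side of the threshold, 14 lost a call and 19 gained one, although IFIT3 with DESeq2 kept its side at over 3 times the size.

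Over all genes, called gene bodies went from 5181 with SNF5 to 223 without the block, 1662 and 1473 without replicates 1 and 2, and 8465 without replicate 3. With OmoMYC they went from 1279 to 1 without the block, 2 without replicate 1 or 2, 1969 with only the compared samples, 2108 with DESeq2 and 6810 without replicate 3, and in SNF5 against OmoMYC from 2858 to 75, 865, 732 and 6277 for the same 4 settings as with SNF5. Promoter-proximal and pausing index calls fell to 0 without the block from 483, 197, 94, 409, 252 and 137, and without replicate 2 they were 36, 3, 19, 4, 0 and 6. Depth limits the promoter-proximal results in replicate 1, and the gene bodies of ISG15, MX1 and OAS1 held too few reads for changes of small size to be detectable.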
